A study of Mus musculus with 14 samples.

Results

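The 10 chemokine genes described here are Ccl2, Ccl3, Ccl4, Ccl5, Ccl7, Ccl12, Cxcl2, Cxcl9, Cxcl10 and Cxcl16, a named list of chemokines that microglia are known to make. Each was represented by the array row annotated to its symbol alone, or by the brightest such row where there were several. All 10 listed genes had 1 such row, out of 19938 genes represented in this way.

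Chemokines are small secreted proteins that direct the migration of leukocytes by binding G-protein-coupled receptors on them. Activated microglia release them after injury, and blood monocytes, T cells, natural killer (NK) cells and neutrophils follow different members of the family into the brain. Transcription of many chemokine genes is driven by NF-kB downstream of Toll-like receptors and cytokine receptors, and that of Cxcl9 and Cxcl10 also by interferons.

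RNA was taken from microglia, the resident macrophages of the brain, after they had been sorted from the cortex of the operated side. The animals were male C57BL/6J mice, 12 to 14 weeks old, either wild type or TLR4-/-, without Toll-like receptor 4, and under isoflurane had either a 15 min filament occlusion of the middle cerebral artery followed by 72 h of reperfusion (I/R) or sham surgery. The 14 Affymetrix Mouse Gene 1.0 ST arrays comprised 4 of wild-type I/R and 4 of wild-type sham microglia, both lettered A to D, 3 of TLR4-/- I/R microglia (B, C, D) and 3 of TLR4-/- sham microglia (A, B, D). The study addressed interferon-stimulated gene expression in microglia after I/R, and the TLR4-/- groups allow the same question without the receptor. The titles of the I/R arrays carry the unexplained abbreviation IPC. The sort markers, the construction of the TLR4 allele and whether each array held RNA of a separate animal are not stated here, and the p-values reflect only how far these arrays spread, part of which may be technical.

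Levels are log2 signals, and olfactory receptor genes, taken as a stand-in for background, had a 95th percentile of 4.73. The mean of 9 microglial marker genes lay between 10.61 and 11.24 on every array, Tmem119 among them at group means between 10.86 and 11.41. Signal for Tlr4 was present in both genotypes, at 8.14 to 8.92 on the 8 wild-type arrays and 7.62 to 8.47 on the 6 TLR4-/- arrays; whether its probes lie in the deleted stretch is not given, which leaves the genotype unchecked by it. Wild-type sham array C was closer to TLR4-/- sham arrays (correlation across all genes from 0.9872 to 0.9916) than with its own group (0.9814 to 0.9865). TLR4-/- I/R array D correlated more with the wild-type I/R arrays (0.9901 to 0.9915) than with its own group (0.9851 and 0.9898). Some other arrays leaned the same way, but with overlapping ranges. For TLR4-/- I/R array B these were 0.9863 to 0.9879 against 0.9851 and 0.9865, and for array C 0.9875 to 0.9902 against 0.9865 and 0.9898. Wild-type sham array D correlated at 0.9883 to 0.9909 with TLR4-/- sham and at 0.9865 to 0.9889 with its own group. The wild-type I/R arrays leaned to their own group. Member counts without these 2 arrays are given beside the counts with them.

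After I/R, 8 of the 10 chemokine genes were higher than after sham in wild-type microglia and 8 of 10 were higher in TLR4-/- microglia, and none was lower (limma, adjusted p under 0.05 over all genes). Ccl2, Ccl3, Ccl4, Ccl5, Ccl12, Cxcl10 and Cxcl16 were called in both genotypes, Cxcl2 in wild type alone and Cxcl9 in TLR4-/- alone, with no called difference between the genotypes' changes for either of those. Ccl7 was called in neither. Of all 19938 genes, 6.15% were called higher and 3.63% lower in wild type, and 5.04% higher and 3.13% lower in TLR4-/-. The median log2 change of the 10 genes was 1.16 in wild type and 1.63 in TLR4-/-, beside -0.06 and -0.03 over all genes. Without wild-type sham array C and TLR4-/- I/R array D, 7 and 6 of the 10 were called.

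**Figure D1:**
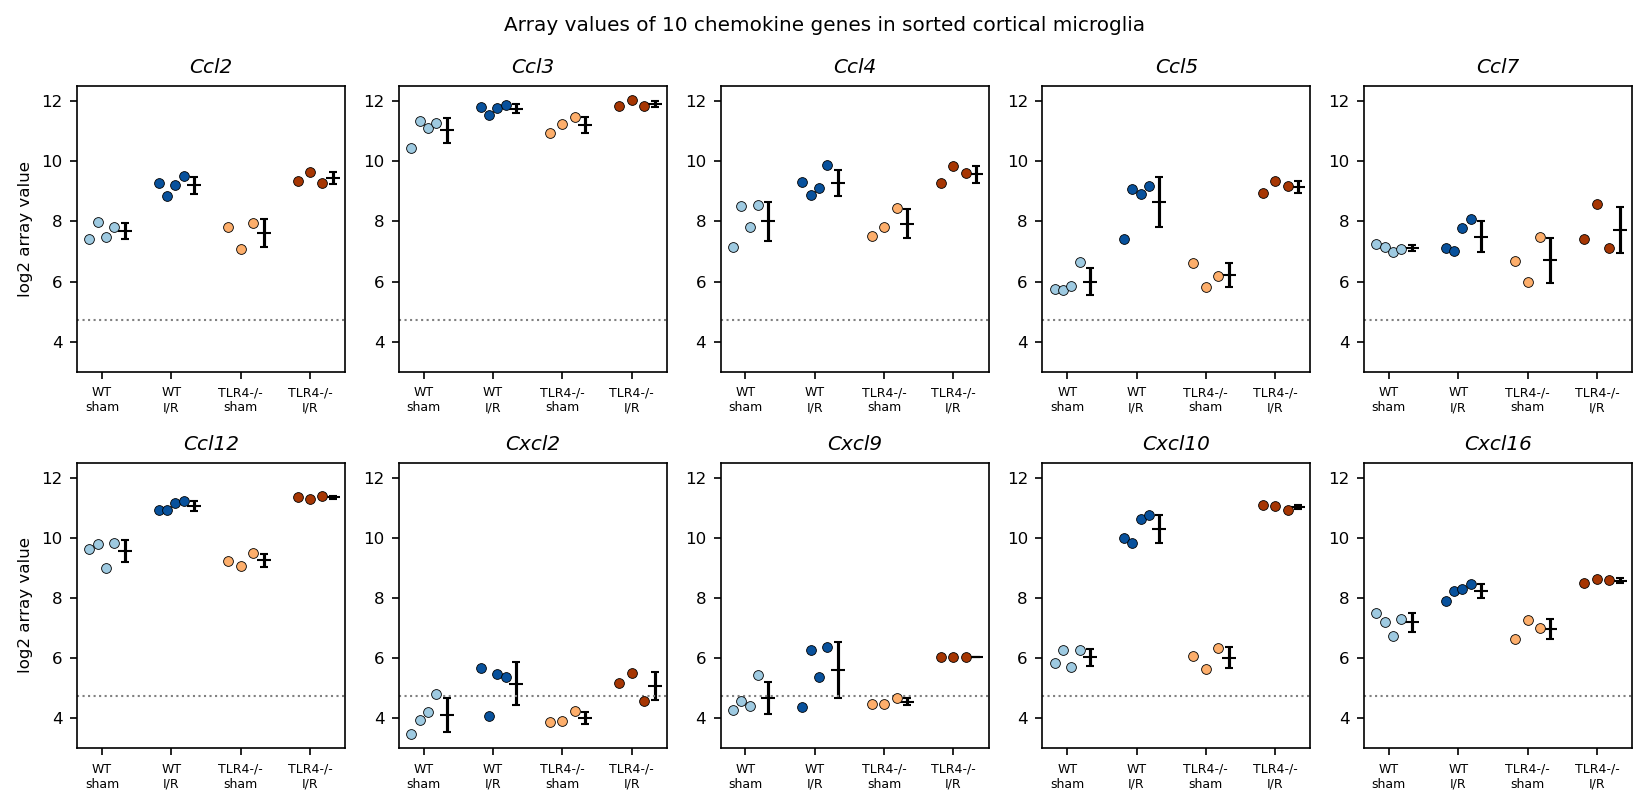
Log2 signal (y axis) of the 10 chemokine genes on the 14 arrays, in 1 panel per gene; points are single arrays by genotype and surgery, the bars beside them are the group mean with its SD, and the dotted line is the background stand-in. The Cxcl10 arrays sit between 5.65 and 6.33 after sham and between 9.82 and 11.08 after I/R, while the Ccl7 arrays of the 4 groups overlap.

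The arrays of the I/R and sham groups did not overlap, with I/R the higher, for 7 of the 10 genes in wild type and for 9 of 10 in TLR4-/-. Over all genes such a separation in that direction was found for 7.78% in wild type and 11.1% in TLR4-/-. The 3 wild-type exceptions were Ccl7, Cxcl2 and Cxcl9, and the TLR4-/- exception was Ccl7.

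Cxcl10 (also called IP-10), an interferon-induced ligand of CXCR3 that attracts activated T cells and NK cells, had the largest change of the 10. Its promoter is shown because the gene stood apart from the others and because its upstream sequence holds elements that interferon and NF-kB signalling are known to use. The 250 bases before the RefSeq transcription start on the minus strand of chromosome 5 (GRCm38.p6, chr5:92348890-92349139) are printed 5′ to 3′, with matches to the interferon-stimulated response element (ISRE, searched as GAAANNGAAA) and to the NF-kB consensus in capitals.
Cxcl10: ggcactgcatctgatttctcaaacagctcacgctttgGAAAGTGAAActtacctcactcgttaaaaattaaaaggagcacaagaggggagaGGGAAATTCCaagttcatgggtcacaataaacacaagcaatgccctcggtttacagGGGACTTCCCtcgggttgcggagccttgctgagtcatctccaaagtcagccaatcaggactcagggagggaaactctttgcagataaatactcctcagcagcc
The ISRE match lay 213 to 204 bases before the start, and the NF-kB matches lay 159 to 150 and 103 to 94 bases before it. Among 32851 promoter windows of the same length, searched on both strands, 2.98% held the ISRE letters, 3.9% the NF-kB consensus and 0.122% both. The promoter was chosen in part for these letters, so the shares are no test of its matches. A match describes the letters only and is not a measured binding site.

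The wild-type I/R arrays read 9.98, 9.82, 10.64 and 10.77 for Cxcl10 (A to D), against 5.84, 6.27, 5.70 and 6.27 on the wild-type sham arrays. The TLR4-/- I/R arrays read 11.08, 11.06 and 10.93 (B, C and D), against 6.06, 5.65 and 6.33 on the TLR4-/- sham arrays (A, B and D). Every I/R array was far above every sham array, with a gap of 3.55 between the nearest wild-type arrays and 4.60 between the nearest TLR4-/- arrays. The log2 change was 4.28 (SE 0.21), 19.4-fold, in wild type (limma adjusted p = 1.19e-09) and 5.01 (SE 0.24), 32.2-fold, in TLR4-/- (limma adjusted p = 2.17e-09). Ranked by change among all 19938 genes, Cxcl10 stood at position 5 in wild type and 2 in TLR4-/-.

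Cxcl9, another CXCR3 ligand, induced chiefly by interferon-gamma, lies 1 coding gene away from Cxcl10 (RefSeq, GRCm38.p6). Its wild-type values were 4.37, 6.27, 5.37 and 6.36 after I/R and 4.27, 4.56, 4.40 and 5.44 after sham, and the groups overlapped, with I/R arrays A and C inside the sham range. The TLR4-/- values were 6.04, 6.05 and 6.03 after I/R and 4.47, 4.49 and 4.67 after sham, without overlap. The log2 change was 0.92 (SE 0.34, 95% interval 0.21 to 1.64, limma adjusted p = 0.101) in wild type and 1.50 (SE 0.39, limma adjusted p = 0.0241) in TLR4-/-, both measured against sham means below the background stand-in. Cxcl9 was called in wild type without I/R array A (log2 change 1.33, limma adjusted p = 0.00347) or without sham array D (limma adjusted p = 0.0363). In TLR4-/- the call was lost whenever 1 of the 6 TLR4-/- arrays was left out (limma adjusted p from 0.0515 to 0.082).

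Ccl2 (MCP-1), Ccl7 (MCP-3) and Ccl12 (MCP-5) are ligands of CCR2, the receptor that draws inflammatory monocytes out of the bone marrow and into tissue. Ccl2 read 9.27, 8.83, 9.21 and 9.50 in wild type after I/R against 7.41, 7.99, 7.48 and 7.82 after sham. In TLR4-/- it read 9.34, 9.66 and 9.29 after I/R against 7.80, 7.08 and 7.96 after sham. No I/R array of either genotype fell into the sham range, and the changes were 2.88-fold in wild type (log2 1.53, SE 0.19, limma adjusted p = 3.55e-05) and 3.51-fold in TLR4-/- (log2 1.81, SE 0.22, limma adjusted p = 3.92e-05).

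Ccl12 had the tightest TLR4-/- I/R arrays of the CCR2 ligands. It read 10.92, 10.92, 11.14 and 11.23 in wild type after I/R against 9.62, 9.78, 9.002 and 9.82 after sham. In TLR4-/- it read 11.36, 11.29 and 11.38 after I/R against 9.21, 9.05 and 9.49 after sham. The surgeries did not overlap in either genotype, and all 3 TLR4-/- I/R arrays lay above all 4 wild-type I/R arrays, the nearest by 0.059. Its log2 change was 1.50 (SE 0.16, limma adjusted p = 5.71e-06) in wild type and 2.09 (SE 0.18, limma adjusted p = 1.14e-06) in TLR4-/-, which is 4.27-fold in the latter.

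Ccl7 was the member that passed the test in neither genotype. It read 7.13, 7.00, 7.77 and 8.08 in wild type after I/R against 7.24, 7.14, 6.98 and 7.10 after sham, so that arrays A and B lay among the sham arrays. In TLR4-/- it read 7.42, 8.56 and 7.13 after I/R against 6.68, 5.98 and 7.48 after sham, again with overlap. The log2 change was 0.38 (95% interval -0.29 to 1.06, limma adjusted p = 0.524) in wild type and 0.99 (95% interval 0.21 to 1.77, limma adjusted p = 0.125) in TLR4-/-. Without TLR4-/- sham array D, the highest of its group, Ccl7 was called in TLR4-/- (limma adjusted p = 0.0359).

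Ccl3 (MIP-1 alpha), Ccl4 (MIP-1 beta) and Ccl5 (RANTES) attract T cells, NK cells and monocytes. Ccl3 read 11.82, 11.52, 11.77 and 11.85 in wild type after I/R against 10.43, 11.32, 11.11 and 11.28 after sham, and 11.84, 12.02 and 11.85 in TLR4-/- after I/R against 10.94, 11.23 and 11.46 after sham. The groups did not overlap, and the changes were 1.63-fold in wild type (log2 0.71, SE 0.17, limma adjusted p = 0.0134) and 1.62-fold in TLR4-/- (log2 0.69, SE 0.20, limma adjusted p = 0.0394). The TLR4-/- call for Ccl3 was lost without TLR4-/- I/R array B, C or D, TLR4-/- sham array A or B, or wild-type I/R array A or C (limma adjusted p from 0.052 to 0.182).

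Ccl4 read 9.30, 8.86, 9.11 and 9.87 in wild type after I/R against 7.15, 8.51, 7.82 and 8.53 after sham. The TLR4-/- arrays read 9.28, 9.84 and 9.60 after I/R against 7.51, 7.81 and 8.45 after sham. The sham arrays were widely spread in both genotypes (SD 0.66 and 0.48) but stayed below the I/R arrays. Ccl4 rose 2.43-fold in wild type (log2 1.28, SE 0.29, limma adjusted p = 0.00772) and 3.14-fold in TLR4-/- (log2 1.65, SE 0.33, limma adjusted p = 0.00432).

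Ccl5 had the second-largest change of the 10 in both genotypes. It read 7.41, 9.06, 8.93 and 9.18 in wild type after I/R against 5.77, 5.70, 5.87 and 6.66 after sham, and I/R array A stood well below the other 3 while sham array D stood above its own group. The TLR4-/- values were 8.94, 9.35 and 9.18 after I/R against 6.61, 5.82 and 6.19 after sham. Neither genotype's groups overlapped, and Ccl5 rose 6.25-fold in wild type (log2 2.64, SE 0.32, limma adjusted p = 2.3e-05) and 7.71-fold in TLR4-/- (log2 2.95, SE 0.37, limma adjusted p = 4.85e-05). Without wild-type I/R array A the wild-type log2 change was 3.06. On that array the interferon regulator Irf7 read 6.46, against 7.40 to 7.73 on the other wild-type I/R arrays. The mean of 11 monocyte markers was 6.15 there, against 6.13 to 6.62 on the others, with Plac8 the lowest of the group (5.93 against 7.57 to 8.01) and Cd44 (6.60) and S100a4 (6.22) the highest. The part of these genes in the Ccl5 value was not tested.

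Cxcl2 (MIP-2) is a ligand of CXCR2 that recruits neutrophils; its signal was near the background stand-in. Cxcl2 read 5.67, 4.09, 5.46 and 5.38 in wild type after I/R against 3.48, 3.94, 4.22 and 4.81 after sham, with I/R array B inside the sham range. In TLR4-/- it read 5.16, 5.51 and 4.57 after I/R against 3.86, 3.92 and 4.24 after sham, with no overlap but with both sham means below the background stand-in. The log2 change was 1.03 (SE 0.31, limma adjusted p = 0.0476) in wild type and 1.07 (SE 0.36, 95% interval 0.30 to 1.84, limma adjusted p = 0.0865) in TLR4-/-. The wild-type call of Cxcl2 was lost without wild-type I/R array A, C or D, wild-type sham array A, B or C, TLR4-/- I/R array B or any TLR4-/- sham array (limma adjusted p from 0.0549 to 0.147). In TLR4-/- Cxcl2 was called without wild-type I/R array B (limma adjusted p = 0.0245).

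The Cxcl2 promoter is shown for comparison with that of Cxcl10, since it held an NF-kB match without an ISRE match. The 250 bases before its RefSeq start lie on the plus strand (GRCm38.p6, chr5:90903649-90903898), with the NF-kB matches in capitals.
Cxcl2: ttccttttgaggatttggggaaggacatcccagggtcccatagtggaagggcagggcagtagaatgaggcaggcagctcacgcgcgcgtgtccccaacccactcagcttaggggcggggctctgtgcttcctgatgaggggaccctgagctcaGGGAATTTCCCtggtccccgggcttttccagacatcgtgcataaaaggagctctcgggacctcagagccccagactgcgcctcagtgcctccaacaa
The capitals hold overlapping matches on opposite strands, 97 to 88 and 96 to 87 bases before the start. RefSeq promoter windows were at hand for 5 of the 10 members, and those of Ccl3, Ccl12 and Cxcl9 held neither these letters nor the gamma-activated site searched as TTCNNNGAA, which 7.02% of all windows held. Cxcl10 and Cxcl2, both with NF-kB letters in this window, had the largest change and one of the smaller changes of the 10.

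Cxcl16, a membrane-bound chemokine that also acts as a scavenger receptor and binds CXCR6 on T cells and NK T cells, rose in both genotypes. It read 7.90, 8.24, 8.30 and 8.47 in wild type after I/R against 7.50, 7.20, 6.75 and 7.30 after sham. In TLR4-/- it read 8.51, 8.64 and 8.58 after I/R against 6.62, 7.27 and 7.01 after sham. The surgeries did not overlap, and all 3 TLR4-/- I/R arrays lay above the 4 wild-type ones, the nearest by 0.034. Cxcl16 rose 2.06-fold in wild type (log2 1.04, SE 0.17, limma adjusted p = 0.00048) and 3.05-fold in TLR4-/- (log2 1.61, SE 0.19, limma adjusted p = 3.43e-05).

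The group means of Ccl2, Ccl4, Ccl7, Ccl12, Cxcl9, Cxcl10 and Cxcl16 were in the same order, from TLR4-/- sham through wild-type sham and wild-type I/R to TLR4-/- I/R. For Ccl3 and Ccl5 the wild-type sham mean was the lowest, and for Cxcl2 the wild-type I/R mean was the highest. The neighbours of that order within a surgery did not differ by the test for any of the 10. After sham, 0 of 10 members were called between genotypes, where 0.00502% of all genes (1 gene, Mid1, named after its value was seen) were called, and the members' log2 differences, TLR4-/- minus wild type, ran from -0.40 for Ccl7 to 0.21 for Ccl5 (limma adjusted p from 0.934 to 0.999). At an unadjusted p under 0.05, 0 of 10 members passed, beside 5.24% of all genes. The sham arrays of the genotypes overlapped for all 10 members, while 5.5% of all genes separated.

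After I/R the TLR4-/- mean was above the wild-type mean for 9 of the 10, all but Cxcl2. It was also above for 19 of 26 other chemokine ligands, 15 of 23 chemokine receptors and 17 of 27 upstream signalling genes, all described below. The median log2 difference of the 10 was 0.29, beside 0.03 over all genes. None of the 10 was called in limma, where 0.0201% of all genes (4 genes) were, and at an unadjusted p under 0.05 only Cxcl10 passed, beside 8.47% of all genes. Cxcl10 was higher in TLR4-/- by 0.72 on the log2 scale (SE 0.22, 95% interval 0.25 to 1.19, limma adjusted p = 0.477). Cxcl16 differed by 0.35 (95% interval -0.03 to 0.73) and Ccl12 by 0.29 (95% interval -0.07 to 0.65). The TLR4-/- I/R arrays lay wholly above the wild-type I/R arrays for these 3 of the 10, and such a separation was found for 6.13% of all genes. These comparisons use the same I/R and sham arrays as the changes above and add no separate arrays.

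The difference between the changes, wild type minus TLR4-/-, was below 0 for 9 of the 10 and 0.01 for Ccl3, with signs that turned in 7 alternatives each for Ccl3 and Cxcl2. Its median over the 10 was -0.47, beside -0.02 over all genes. Limma called 0% of genes here, and every member had an adjusted p of 1. At an unadjusted p under 0.05, 3 of 10 members passed, beside 3.82% of all genes. These were Cxcl10 at -0.73 (95% interval -1.40 to -0.06), Ccl12 at -0.59 (95% interval -1.11 to -0.08) and Cxcl16 at -0.56 (95% interval -1.11 to -0.02). For Ccl5 the difference was -0.30 with an interval from -1.33 to 0.72, and for Ccl2 it was -0.28 with an interval from -0.90 to 0.33. The intervals allow a larger change in TLR4-/- for each member, and for the 7 members that did not pass they also include 0.

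**Figure D2:**
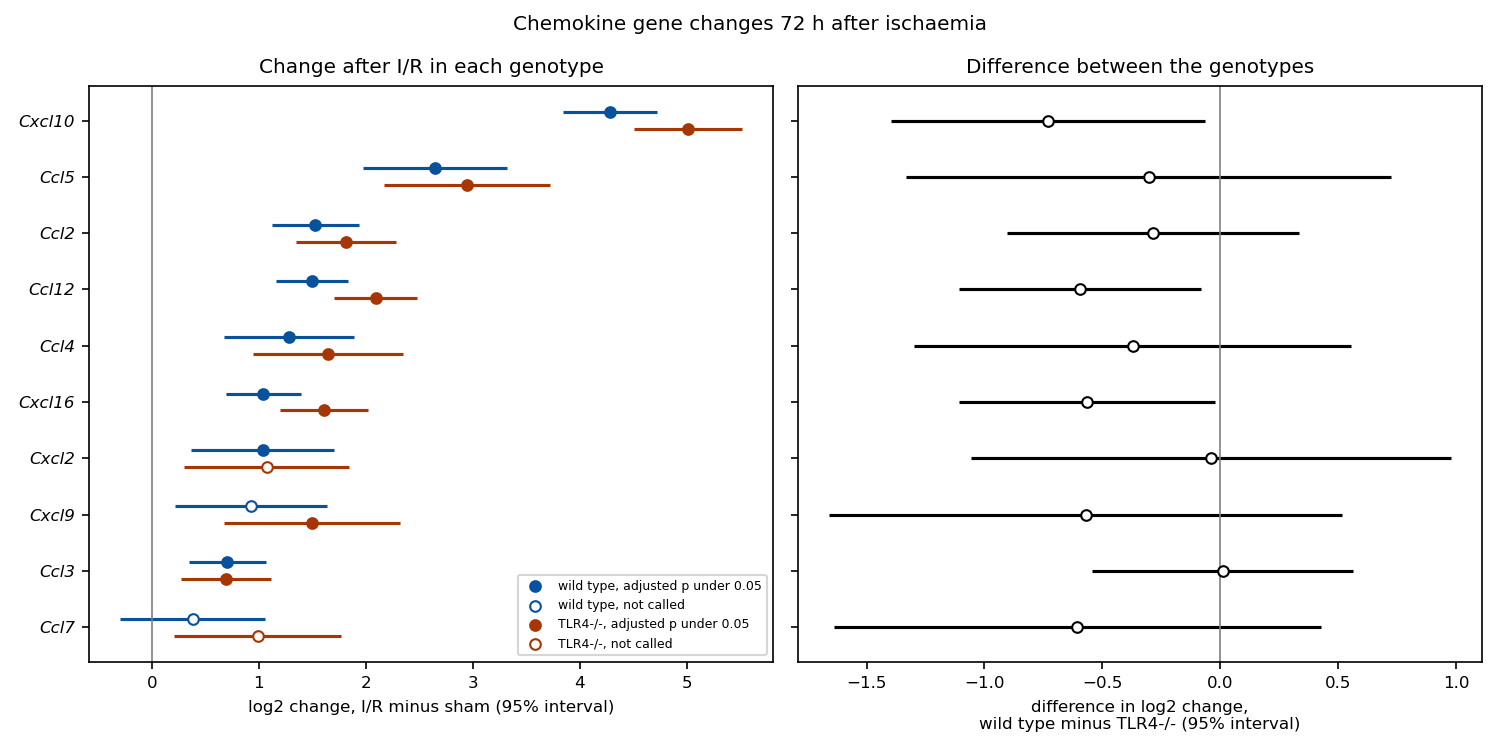
Log2 change of each chemokine gene between I/R and sham in wild type and in TLR4-/- (points) with the 95% interval of the limma fit (bars); filled points passed the adjusted p threshold, and the right panel gives the difference between the changes. Changes run from 0.38 for Ccl7 to 4.28 for Cxcl10 in wild type and from 0.69 for Ccl3 to 5.01 for Cxcl10 in TLR4-/-, and the intervals of the genotypes overlap for every gene.

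Single arrays stood high or low for most of the 10 genes. Wild-type I/R array D was the highest of its group for 9 of the 10, all but Cxcl2, whereas it was the highest for 26.8% of all genes and 39.4% of the genes called higher in wild type. Array B was the lowest of that group for Ccl2, Ccl3, Ccl4, Ccl7, Cxcl2 and Cxcl10, and array A for Ccl5, Ccl12, Cxcl9 and Cxcl16. Array B was the lowest for 26.2% of all genes and 40.7% of those called higher, and array A for 25% and 24.3%. TLR4-/- I/R array C was the highest of its group for 8 of 10 (31.6% of all genes and 27.9% of those called higher in TLR4-/-), and TLR4-/- sham array D was likewise for 8 of 10 (35% and 48.8%). Values of different members on 1 array share that array's RNA and hybridisation. The SD was smaller among the TLR4-/- I/R arrays than among the wild-type I/R arrays for 9 of 10, all but Ccl7, beside 40.9% of all genes. For Cxcl9 it was 0.01 against 0.93.

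**Figure D3:**
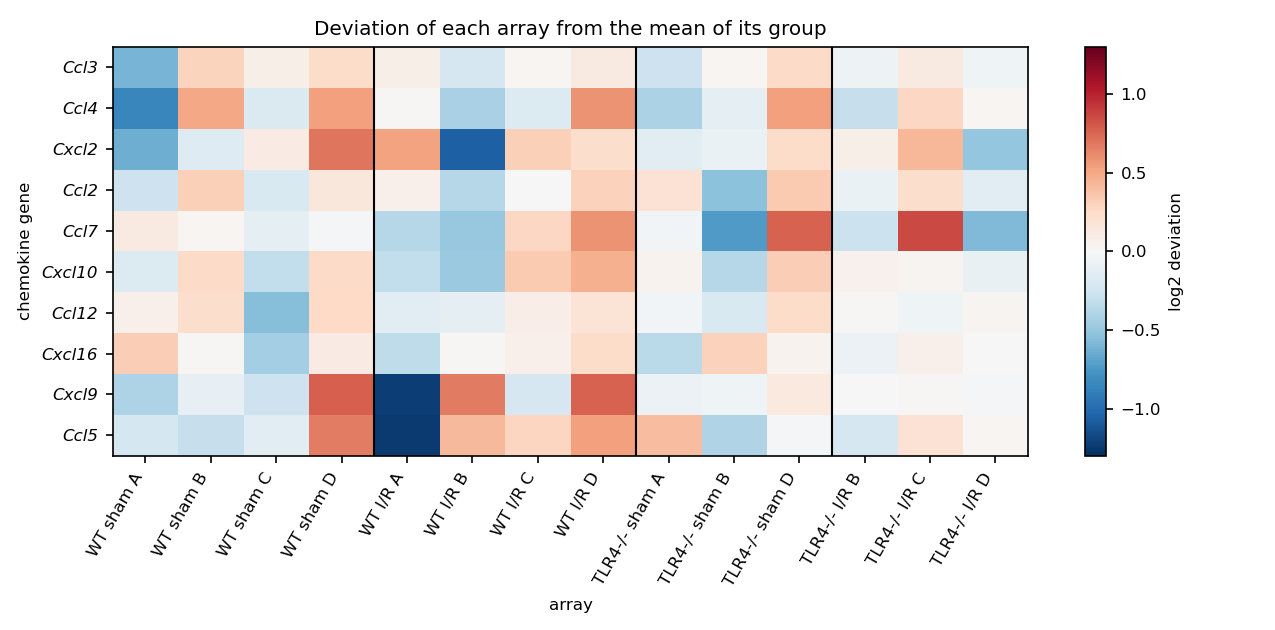
Deviation of each array from its group mean, in log2 units (colour), for the 10 chemokine genes (vertical axis) and the 14 arrays (horizontal axis). Wild-type I/R array A is low for Ccl5 (-1.24) and wild-type I/R array D is above its group mean for most genes.

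The 26 other chemokine ligands measured mostly did not pass the test, and only 14 of them had a mean signal above the background stand-in. In wild type 2 were higher and 0 lower, and in TLR4-/- 3 were higher and 0 lower, with median log2 changes of -0.03 and 0.02. Of all genes, 6.15% and 5.04% were called higher. Cxcl13, the B-cell attractant that binds CXCR5, rose by 1.24 (SE 0.23, limma adjusted p = 0.00199) in wild type and 1.62 (SE 0.27, limma adjusted p = 0.000917) in TLR4-/-. Ccl8 (MCP-2) rose in wild type by 1.43 (SE 0.31, limma adjusted p = 0.00574) from a sham mean below the background stand-in; its wild-type arrays read 5.37, 5.51, 5.35 and 5.70 after I/R and 3.63, 3.96, 3.70 and 4.93 after sham. In TLR4-/- Ccl8 changed by 0.66 without passing, and the changes did not differ by the test (limma adjusted p = 1). Cxcl11 RNA rose in TLR4-/- by 1.17 (SE 0.25, limma adjusted p = 0.00689), as did that of Ccl6 by 0.58 (SE 0.16, limma adjusted p = 0.0335). In wild type Cxcl11 just missed the threshold (0.70, limma adjusted p = 0.0505) and was called without wild-type I/R array A or TLR4-/- I/R array B. The Ccl6 call needed each of the TLR4-/- I/R arrays C and D and of the TLR4-/- sham arrays (limma adjusted p from 0.0582 to 0.113 without 1 of them), and Ccl6 was called in wild type without sham array A.

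The members other than Cxcl16 lie in a few gene clusters, and genes side by side differed in their calls. Cxcl16 lies on chromosome 11 with 224 coding genes between it and Ccl2, the next chemokine ligand gene. On chromosome 11 the order is Ccl2, Ccl7, Ccl11, Ccl12, Ccl8, Ccl1 with 0 coding genes between them (RefSeq, GRCm38.p6). Ccl2 and Ccl12 were called in both genotypes, while Ccl11, the eosinophil attractant eotaxin, had log2 changes of -0.07 and -0.03 and Ccl1 of -0.04 and -0.02, with neither called. After 25 further coding genes follow Ccl5, Ccl9, Ccl6, Ccl3 and Ccl4. On chromosome 5 Cxcl2 lies beside Cxcl1, another CXCR2 ligand, which changed by -0.09 in wild type and 0.15 in TLR4-/- and was not called in either.

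Of the 23 chemokine receptor genes measured, 4 were higher and 1 lower in wild type and 3 were higher and 1 lower in TLR4-/- (median log2 change -0.07 and -0.19). Over all genes, 6.15% were called higher and 3.63% lower in wild type, and 5.04% and 3.13% in TLR4-/-. Only 13 of the 23 had a mean signal above the background stand-in. Cxcr4, the receptor of Cxcl12, rose by 1.14 (limma adjusted p = 0.0103) in wild type and 1.03 (limma adjusted p = 0.0482) in TLR4-/-. Ccrl2, an atypical receptor, rose by 0.99 and 0.97, and Ackr3, which also binds Cxcl12, by 0.40 and 0.53 from sham means below the background stand-in. Cx3cr1, the fractalkine receptor that marks resident microglia, fell by 0.42 in wild type (limma adjusted p = 0.00828) and by 0.38 in TLR4-/- (limma adjusted p = 0.0393). Cxcr2, the receptor of Cxcl2, was called higher in wild type by 0.54 (limma adjusted p = 0.0436) with every group mean below the background stand-in. The wild-type calls of Cxcr4 and Cx3cr1 held in all 23 alternatives. Without TLR4-/- sham array A none of the 4 TLR4-/- receptor calls remained (limma adjusted p from 0.125 to 0.197 for Cxcr4, Ccrl2, Ackr3 and Cx3cr1), and without wild-type I/R array A, C or D the wild-type calls of Ccrl2, Ackr3 and Cxcr2 were lost, as some were without wild-type sham arrays (limma adjusted p from 0.0518 to 0.156). Without wild-type sham array C and TLR4-/- I/R array D, 2 receptor genes were higher and 1 lower in wild type, and 1 was higher and 0 lower in TLR4-/-.

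None of the other measured receptors for the members passed. Ccr1, which binds Ccl3, Ccl5 and Ccl7, changed by 0.42 and 0.17 in wild type and TLR4-/-. Ccr2, the receptor of Ccl2, Ccl7 and Ccl12, changed by 0.41 (limma adjusted p = 0.0763) and -0.22 (limma adjusted p = 0.501), and was called higher in wild type once arrays were centred on the median of all rows (limma adjusted p = 0.0405). Cxcr3, which binds Cxcl9 and Cxcl10, changed by -0.45 and -0.36, and Cxcr6, which binds Cxcl16, by -0.61 and -0.48. Ccr1 was called higher in wild type without TLR4-/- sham array B (limma adjusted p = 0.0399). Cxcr3 and Cxcr6 were called lower in wild type without sham array A (limma adjusted p = 0.0444 and 0.00801).

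Of 27 measured genes that act upstream of chemokine transcription, 4 were higher and 3 lower in wild type and 5 were higher and 1 lower in TLR4-/-, with medians of 0.03 and 0.11. The shares over all genes were 6.15% higher and 3.63% lower in wild type, and 5.04% and 3.13% in TLR4-/-. The cytokine Il1b read 8.35, 7.67, 8.87 and 9.04 in wild type after I/R against 6.26, 6.78, 6.82 and 7.52 after sham, and 8.60, 9.41 and 9.29 in TLR4-/- after I/R against 6.10, 6.46 and 6.50 after sham. It rose by 1.64 (limma adjusted p = 0.00105) in wild type and 2.74 (limma adjusted p = 3.34e-05) in TLR4-/-, and Tnf, which with Il1b activates NF-kB, rose by 1.37 and 1.53. Irf7 rose by 1.92 and 2.69 and Stat2, a subunit of the complex that binds ISREs, by 1.05 and 1.45. The NF-kB subunit gene Relb rose in TLR4-/- by 0.39 (limma adjusted p = 0.0453).

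The genes called lower were Irf5 in wild type (-0.51; -0.44 in TLR4-/-, limma adjusted p = 0.0568), the interferon-gamma receptor gene Ifngr1 in both (-0.47 and -0.56) and Tlr4 in wild type (-0.48, limma adjusted p = 0.0485), while its change in TLR4-/- was -0.30 (limma adjusted p = 0.355). The wild-type call of Tlr4 was lost in 13 of 23 alternatives, among them without any 1 of the wild-type I/R arrays A, C and D and the sham arrays A, B and C (limma adjusted p up to 0.138). That of Relb in TLR4-/- was lost in 14 of 23 (limma adjusted p up to 0.142), among them without any 1 TLR4-/- I/R array, and that of Ifngr1 in TLR4-/- without I/R array C (limma adjusted p = 0.0509). The interferon genes Ifnb1 and Ifng stayed below the background stand-in in every group. No gene of these 3 lists was called in the difference between the changes or between genotypes.

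**Figure D4:**
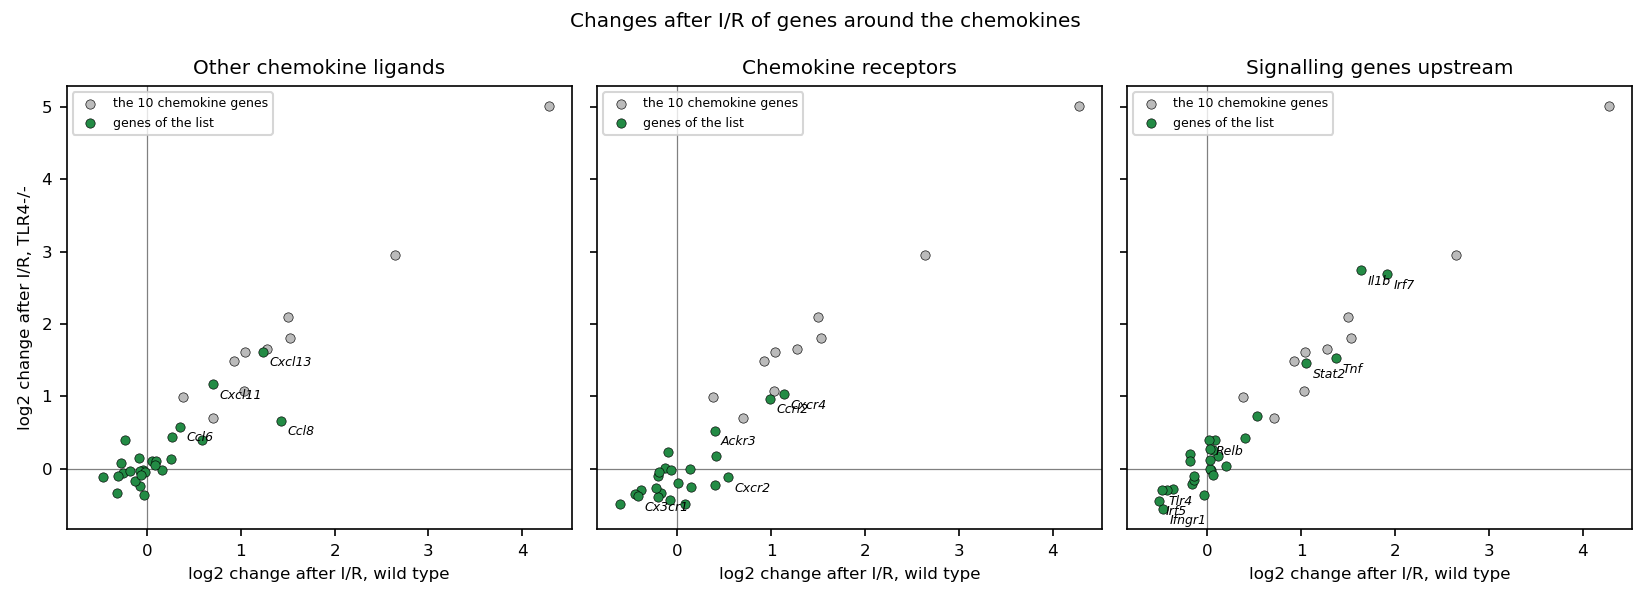
Log2 change between I/R and sham in wild type (horizontal axis) against that in TLR4-/- (vertical axis) in panels for the other ligands, the receptors and the upstream signalling genes (green), with the 10 chemokine genes in grey in each; points are genes, and called list genes carry their names. Cxcl10 lies at 4.28 and 5.01, away from the other genes of each panel.

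For the 7 members called in both genotypes, the genes with the most alike pattern over the 14 arrays were found by the root mean square distance between mean-centred log2 values. Cd72 and Ch25h were nearest to Cxcl10 (distances 0.453 and 0.519), and Ms4a4c and Zbp1 to Ccl5 (0.349 and 0.404). Ccl12 and Iqgap1 were nearest to Ccl2 (0.242 and 0.248), Tnf and Ccl2 to Ccl4 (0.32 and 0.321), and Glrx and Ifitm2 to Ccl12 (0.193 and 0.207). Igfbp6 and Chst2 were nearest to Ccl3 (0.164 and 0.168), and Cd52 and Ifi30 to Cxcl16 (0.162 and 0.204).

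Markers of other cells were read beside the chemokines, since a sorted sample can hold cells that make them too. Part of the monocyte marker list moved with the I/R changes: 6 of 11 measured were higher in wild type and 5 in TLR4-/-, with 0 lower. Of all genes, 6.15% were called higher and 3.63% lower in wild type, and 5.04% and 3.13% in TLR4-/-. The mean of the 11 on each array ran from 5.04 to 5.16 in wild-type sham and 6.13 to 6.62 in wild-type I/R. In TLR4-/- it ran from 4.77 to 4.99 after sham and 5.99 to 6.27 after I/R. Plac8 rose by 2.59 and 3.52 and Ms4a4c by 2.66 and 2.89, all from sham means below the background stand-in. Vim rose by 3.20 and 2.91, Cd44 by 1.592 and 1.355 and S100a4 by 1.27 and 1.48, while Chil3 was called in wild type alone. Itga4, F13a1 (0.13 and 0.13), Treml4 (0.001 and 0.19) and Ace (-0.26 and 0.19) were called in neither genotype. Ccr2, which defines inflammatory monocytes, did not pass either, and Ly6c2 was not analysed here. The means of the 9 microglial markers ran the other way, from 11.11 to 11.22 in wild-type sham, 10.63 to 10.89 in wild-type I/R, 11.12 to 11.24 in TLR4-/- sham and 10.61 to 10.77 in TLR4-/- I/R, with 7 and 6 of 9 called lower (7 and 4 without wild-type sham array C and TLR4-/- I/R array D). The part of cell composition in the chemokine changes was not tested, and in bulk RNA a different share of cells of a type cannot be told apart from a different amount of RNA per cell.

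No lymphocyte marker passed the test. The counts below stand beside 6.15% of all genes called higher and 3.63% lower in wild type, and 5.04% and 3.13% in TLR4-/-. Of 11 measured T-cell and NK-cell markers 0 were called in either genotype, their array means ran from 3.73 to 3.96, and Cd3e lay between 4.92 and 5.16 in the group means. Of 4 B-cell markers 0 were called. Of 10 neutrophil markers 1 (Cxcr2) was called higher in wild type and 0 in TLR4-/-, and their array means ran from 3.39 to 3.81 on all arrays but wild-type I/R array C, where the mean was 4.42. On that array S100a9 read 7.06, against 3.78 to 4.22 on the other wild-type I/R arrays, S100a8 read 4.94 against 2.95 to 3.33, and Ngp read 4.75 against 2.92 to 3.68. Array C was neither the highest nor the lowest of its group for any of the 10 chemokine genes. The wild-type call of Cxcl2, the neutrophil attractant, was lost without it (limma adjusted p = 0.133), and likewise without wild-type I/R array A (0.147) or D (0.132). The part of neutrophils in the Cxcl2 values was not tested. Among 8 markers of border-associated macrophages, 0 were called after I/R in wild type and 1 was lower in TLR4-/-. Their mean was 7.55 in wild-type sham, 7.53 in wild-type I/R, 7.14 in TLR4-/- sham and 6.94 in TLR4-/- I/R. All 8 were lower in TLR4-/- than in wild type after sham (median log2 difference -0.44) and after I/R (-0.58), with 0 called. The part of these cells in the genotype comparisons of the chemokines was not tested. Of 6 endothelial markers, Cdh5 (0.67) and Flt1 (0.42) were higher and Pecam1 (-0.93) lower in wild type, and Pecam1 (-1.09) was lower in TLR4-/-, with array means of the 6 between 4.72 and 5.11. Of 7 astrocyte markers, Slc1a3 was lower in both genotypes (-0.72 and -0.75), and array means ran from 4.94 to 5.82.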

How the data were processed

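The deposited values are log2 signals that the authors made with RMA in the oligo package, according to the submitters' processing notes, which give no versions. RMA corrects background, forces arrays to a common distribution and summarises probes, so changes are relative to the other genes of an array. Of 35556 rows, 21789 carried 1 symbol in the platform annotation, 1621 several and 12146 none; the row with the highest mean stood for each of 19938 genes. Members had 1 row each. Array medians over all rows lay between 4.93 and 5.12.

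One linear model with 4 group means was fitted to all arrays in limma 3.58.1 (R 4.3.3, lmFit, eBayes, Benjamini-Hochberg over all genes, calls at adjusted p under 0.05), after tests on simulated data. The members and lists were chosen with earlier results of these data known. Outside the members, the text names called list genes with the largest changes (at most 5 per list and direction), the receptors of the members, preset markers and the 2 nearest genes by pattern. Alternatives covered array weights, the variance prior, centring, dim genes, the replicate letter, the groups fitted and single arrays left out. Promoters came from RefSeq (GRCm38.p6).

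Array letters were checked as pairs. Deviations of 18 same-letter pairs correlated at -0.0987 to 0.281 (median 0.0412, 3 above 0.1). Those of 55 different-letter pairs correlated at -0.26 to 0.237 (median -0.00517, 6 above 0.1). The ranges overlapped widely, which does not settle whether letters mark pairs. The series text names no block, and letters were not used as pairs in the main model.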

Additional observations from a re-analysis of the deposited data

Results flagged for a closer look

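Of 20 sets of 4 arrays tested, 1 set per member and wild-type group, 2 held an array far from the others, both for Ccl5; chance alone gives about 1 in 20. Wild-type I/R array A read 7.41 for Ccl5 on the log2 scale, where the nearest other array of its group read 8.93. Wild-type sham array D read 6.66 for Ccl5, where the nearest other array read 5.87. With either array left out, Ccl5 remained called in both genotypes.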

How the results depend on the processing

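Across 23 alternatives (22 for the difference of changes) the number of chemokine genes called was 7 to 9 in wild type and 6 to 9 in TLR4-/-, and 0 in the other 3 comparisons. With single arrays left out the range was 7 to 9 in wild type and 6 to 9 in TLR4-/-. All 10 changes between I/R and sham stayed above 0 in both genotypes. Of 1135 recomputed member values, 1100 kept their side of the threshold, 33 of which changed sign without being called, all in comparisons that involve genotype. A further 29 were no longer called, 6 became called and 0 reversed a call. All of these changes of call fell in I/R against sham, for Ccl3, Ccl7, Cxcl2 and Cxcl9. Cxcl2 lost its wild-type call in 13 of 22 alternatives, and in TLR4-/- Ccl3 lost its call in 9 of 23 and Cxcl9 in 7 of 23. In the other 3 comparisons no member was called under any alternative, so agreement there says little about the I/R calls. The cause of the changed calls was not tested. Ccl2, Ccl4, Ccl5, Ccl12, Cxcl10 and Cxcl16 stayed called in both genotypes throughout. With the replicate letter as a block, 9 were called in wild type and 7 in TLR4-/-. Under it Cxcl9 was called in wild type (limma adjusted p = 0.0387) and Ccl3 was not called in TLR4-/- (0.0878). With only the groups compared in the model, 7 and 9 were called, Cxcl2 losing its call in wild type (0.0861) and gaining one in TLR4-/- (0.012). Cxcl2 was lost in wild type with the trend and robust settings (0.0717) and was not tested once dim genes were left out. Without wild-type sham array C and TLR4-/- I/R array D, an alternative chosen after seeing the data, Cxcl2 in wild type (0.0702) and Ccl3 (0.0761) and Cxcl9 (0.0596) in TLR4-/- were lost.

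Centring each array on its median over all rows, also chosen after seeing the data, left 8 members called in each genotype and moved the share of higher genes among calls from 62.9% to 76.8% in wild type and from 61.7% to 71.3% in TLR4-/-. The 1628 calls in TLR4-/- fell to 1071 without TLR4-/- I/R array C and to 970 without TLR4-/- sham array A. All-gene calls between genotypes ranged from 0 to 10 after sham (10 without wild-type sham array C) and from 0 to 7 after I/R, and were 1 at most for the difference of changes. The number of arrays limits the precision, and the sham means of Cxcl2 and Cxcl9 lay below the background stand-in in both genotypes.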
